A study of Mus musculus with 12 samples.

Results

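The death receptor and Bcl2 apoptosis genes are 9 genes, *Fadd*, *Casp8*, *Cflar*, *Ripk1*, *Bid*, *Bax*, *Bcl2*, *Bcl2l1* and *Xiap*, chosen by name. Among the non-control spots of the arrays, 13 of 39429 probes carry 1 of these names, and the 9 genes are among 29608 gene names measured. *Cflar* has 4 probes, *Bcl2l1* has 2 and each of the other genes has 1. Expression was measured in the hippocampus of 12 adult female mice of about 12 weeks, 4 in each of the strains MRL/lpr, Fn14ko and MRL/+, with 6 Agilent arrays. The first strain, MRL/lpr, carries the lpr mutation of the death receptor gene *Fas* and develops a lupus-like disease. Fn14ko mice carry the same mutation on the MRL/lpr background and lack *Tnfrsf12a* as well, the gene of the TWEAK receptor Fn14, and were bred as littermates of the MRL/lpr mice. MRL/+ mice (MRL/MpJ) have an intact *Fas* and came from another supplier, so the strains differ in source as well as genotype. Each array held 2 mice of the same strain, with replicates 1 and 3 in Cy3 and replicates 2 and 4 in Cy5, and the 2 arrays of a strain shared a slide. Slide and strain therefore cannot be told apart.

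Death receptors such as Fas and the TNF receptors kill a cell by drawing the adaptor FADD and the initiator procaspase-8 into a complex. The product of *Cflar*, c-FLIP, resembles caspase-8 and competes with it there, and the kinase RIPK1 directs the signal to survival, apoptosis or necroptosis. Active caspase-8 cuts BID, whose fragment carries the signal to mitochondria, where BAX permeabilises the outer membrane and Bcl-2 and Bcl-xL (the product of *Bcl2l1*) hold BAX in check. XIAP blocks the executioner caspases further down. In neurons of the adult brain Bcl-xL is the main survival protein of this family.

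The probes of 4 of the genes are shown because the results turn on them. The probes of *Bcl2* and *Casp8* are the only ones of those genes, and those of *Cflar* and *Bcl2l1* gave other values than the remaining probes of the same gene. Each is a 60-base sequence as deposited, written 5′ to 3′ in the sense of the transcript, with no part picked out in capitals.
Bcl2: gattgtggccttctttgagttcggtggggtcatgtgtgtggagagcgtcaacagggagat
Bcl2l1: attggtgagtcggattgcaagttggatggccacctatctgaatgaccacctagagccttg
Cflar: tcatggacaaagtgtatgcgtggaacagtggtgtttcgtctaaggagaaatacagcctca
Casp8: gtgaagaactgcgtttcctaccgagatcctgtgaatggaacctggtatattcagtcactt
On mm9, the build of the array's design, the *Bcl2* probe lies at chr1:108608970-108609029 on the minus strand and the *Casp8* probe at chr1:58901601-58901660 on the plus strand. The *Cflar* probe shown lies at chr1:58810660-58810719 on the plus strand, and the *Bcl2l1* probe shown at chr2:152655185-152655244 on the minus strand. All 4 read coding sequence, that of *Cflar* the caspase-like domain of the long form of c-FLIP, and each of the 4 sequences has at least 1 reading frame without a stop codon. The second *Bcl2l1* probe, at chr2:152606404-152606463, starts at base 2581 of the transcript it is assigned to, and the probe shown at base 720 of another transcript, so these transcript positions cannot be set against each other. In the genome both lie on the minus strand, with the second probe downstream of the probe shown. The array files give no exon annotation.

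The arrays were not equally bright. In MRL/lpr replicates 3 and 4, which share an array (the weak array below), the median spot reached only 1.93 and 1.73 times its background, as against 4.43 to 12.6 among the remaining 10 mice, and their levels correlated with those of mice on other arrays with r of 0.439 to 0.492 and 0.263 to 0.319 across genes. Without that array MRL/lpr is left with 2 mice, which also share an array. In MRL/+, the 2 Cy5 channels had 29.6% and 31.8% of spots well above background, compared with 67.5% and 66.2% in the 2 Cy3 channels. The targeted gene *Tnfrsf12a* was lowest in Fn14ko, at 0.151 to 0.189 channel medians, compared with 0.241 to 0.439 in MRL/lpr and 0.283 to 0.629 in MRL/+, with no overlap, although its probe was well above background in all 4 Fn14ko mice. Whether that probe lies in the deleted part is not known here. *Fas* had a log2 fold change of -0.99 for MRL/lpr versus MRL/+ with all 12 mice (SE 0.68, limma adjusted p = 0.520) and of -1.74 without the weak array (SE 0.43, adjusted p = 0.0234), but its probe was well above background in only 1 of 4 MRL/lpr mice. For Fn14ko versus MRL/+ the values were -1.30 (adjusted p = 0.425) and -1.05 (adjusted p = 0.0580).
Cell type markers differed between strains as well. The summed level of 8 choroid plexus markers, in channel medians, was 7.89 to 38.2 in MRL/lpr, compared with 0.544 to 5.48 in Fn14ko and 0.951 to 2.59 in MRL/+. The summed level of 10 hippocampal neuron markers was 9.05 to 19.6, 8.44 to 12.6 and 8.95 to 15.7, that of 8 astrocyte markers 6.52 to 16.6, 17.4 to 20.9 and 14.3 to 22.3, and that of 10 T and B lymphocyte markers 1.45 to 5.93, 0.833 to 1.11 and 1.48 to 3.77 in MRL/lpr, Fn14ko and MRL/+. For 8 oligodendrocyte markers the sums were 17.0 to 31.7, 13.5 to 22.5 and 14.2 to 26.3, for 8 microglia markers 7.07 to 16.7, 11.5 to 12.9 and 12.7 to 20.5, and for 7 endothelial markers 3.15 to 6.50, 6.61 to 10.6 and 5.403 to 7.03. A sum follows its brightest probes, and single markers differed also where the sums overlapped. Of the 10 hippocampal neuron markers, 5 were called higher and 0 lower in MRL/lpr than in MRL/+ (median log2 fold change 2.59) and 6 higher and 0 lower than in Fn14ko (median 2.40), or 7 and 8 higher without the weak array. Over all genes these medians were 0.21 and 1.34 without a filter on dim spots, and -0.01 and 0.03 with it. Of the 8 choroid plexus markers, 1 and 4 were called higher, or 5 and 6 without the weak array, and 0 lower. Of all genes, 0.77% and 5.37% were called higher without a filter, 3.46% and 2.21% with it, and 6.11% and 4.09% without the weak array. With all 12 mice, microglia markers had 2 and 1 called lower and 0 higher, and lymphocyte markers 0 and 2 higher and 0 lower. Astrocyte markers had 1 and 1 higher and 0 and 1 lower, oligodendrocyte markers 1 and 0 higher and endothelial markers 0 and 1 higher. The part of these differences in the results below was not tested. In a tissue sample fewer cells of a type and less RNA per cell cannot be told apart.

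A level below is a net intensity in multiples of the channel's median, and it compares mice for the same gene, not genes with each other. *Cflar*, *Bax*, *Bcl2l1* and *Xiap* had a spot over 2 times background in all 12 mice and were tested among the 8864 genes of that kind. *Fadd*, *Casp8*, *Ripk1*, *Bid* and *Bcl2* did not, and were taken from a fit of all 29608 genes with no such filter. The first 4 of these were not well above background on the weak array nor in the 2 MRL/+ mice in Cy5, and *Bcl2* was well above background in every mouse outside the weak array. In the unfiltered fit the median log2 fold change of all genes was 0.21 for MRL/lpr versus MRL/+, 1.34 for MRL/lpr versus Fn14ko and -0.97 for Fn14ko versus MRL/+, so the fold changes of these 5 genes are read against those shifts.

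**Figure D1:**
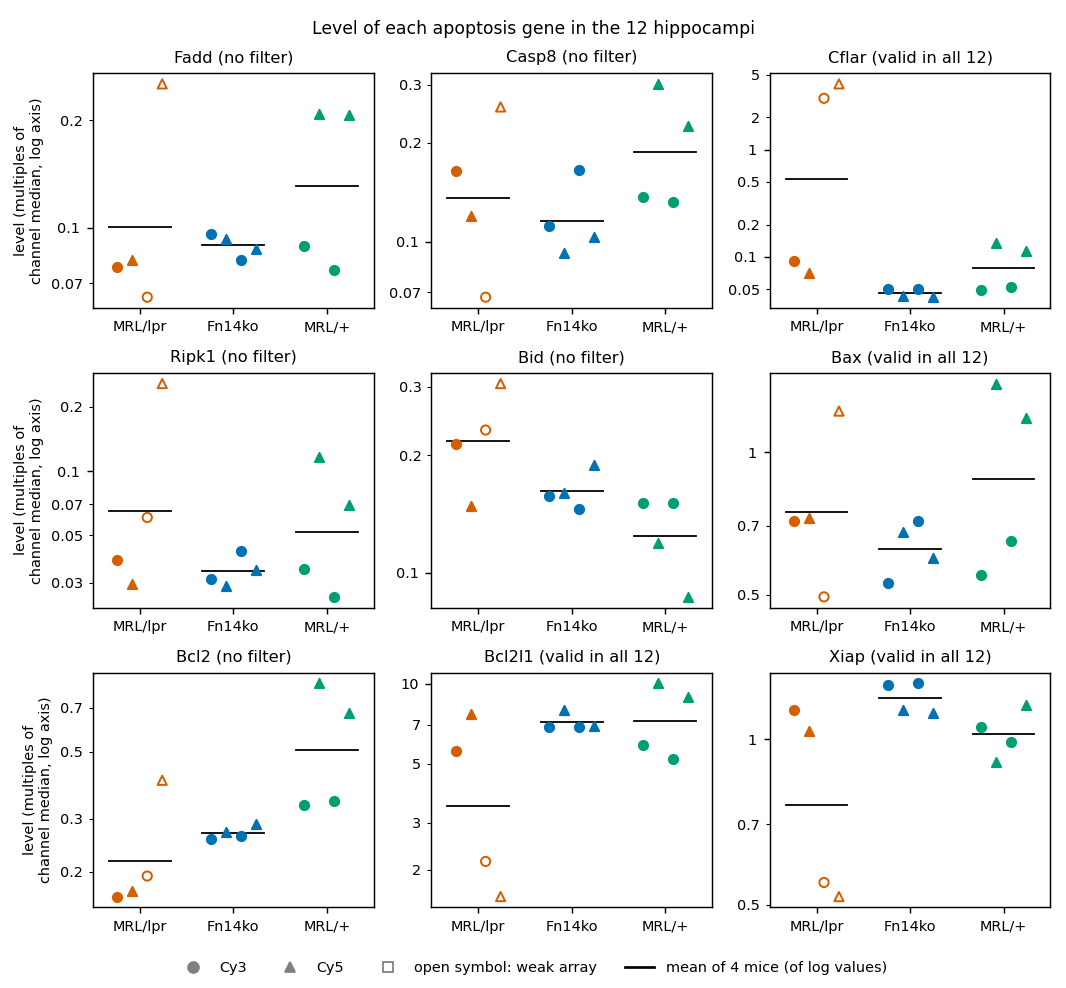
Level of each gene in each mouse, in multiples of the channel median on a log axis, by strain. Circles are Cy3 and triangles Cy5, open symbols are the 2 MRL/lpr mice of the weak array and the line is the mean of the log values. *Bcl2* ran from 0.166 to 0.402 in MRL/lpr and from 0.334 to 0.844 in MRL/+, and the open symbols of *Cflar* lie at 3.01 and 4.10, far above all other mice.

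Among the 9 genes, *Bcl2* came closest to a difference between strains by limma with no block for array. Its level was lower in MRL/lpr than in MRL/+ by 1.22 log2 units. In that fit it was short of the threshold with all 12 mice and past it without the weak array. With array as a random block and all 12 mice, its only probe had an SE of 0.51 and a limma adjusted p of 0.324 in this comparison. With all 12 mice, 0 of 9 genes passed an adjusted p of 0.05 in any of the 3 comparisons by limma. The smallest adjusted p was 0.0611 (*Bcl2*) for MRL/lpr versus MRL/+, 0.0932 (*Cflar*) for MRL/lpr versus Fn14ko and 0.353 (*Bcl2*) for Fn14ko versus MRL/+. At an unadjusted p under 0.05 there were 4, 3 and 1 of the 9, beside 36.6%, 36.2% and 15.3% of the filtered genes and 19%, 28.2% and 8.51% of all genes without a filter. By the heteroscedastic test of the methods there were 1, 0 and 1 unadjusted, beside 15.8%, 13% and 16.8% of the filtered genes, and 0 after adjustment. In the background of the limma test, 9.17%, 3.98% and 0.519% of the filtered genes passed in the 3 comparisons, and 2.46%, 6.83% and 0.145% of all genes without a filter. These fits do not take up that the mice of an array resemble each other. With array as a random block (estimated correlation within arrays 0.71), 7, 4 and 0 of the 8864 filtered genes passed in place of 813, 353 and 46, and again 0 of the 9.
Once the weak array was left out, all 9 genes had a spot valid in the remaining 10 mice, and 1, 1 and 2 of them passed, *Bcl2* in all 3 comparisons and *Xiap* in Fn14ko versus MRL/+. Of the 17936 genes tested there, 15.7%, 9.12% and 21.1% passed, so these counts are near the background and are no result about the 9 genes as a group. MRL/lpr is then 1 array, so the p-values without the weak array hold no spread between MRL/lpr arrays. The correlation within arrays was estimated at -0.27 in these 10 mice, and blocking by it raised the calls to 28.6%, 15.9% and 35.7% of genes, so that the block was no stricter test there. The median log2 fold change of the 9 genes was -0.38, 0.24 and -0.55 with all 12 mice and -0.12, -0.09 and -0.30 without the weak array, beside -0.10, -0.04 and -0.07 over all genes tested in those 10 mice.

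**Figure D2:**
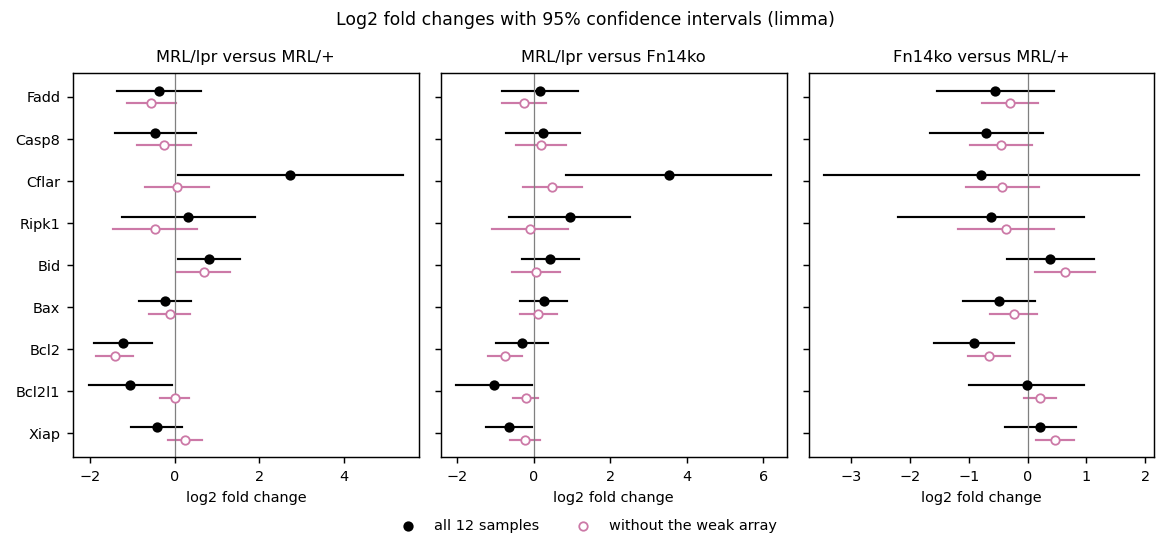
Log2 fold change of each of the 9 genes (x axis) in the 3 comparisons, with its 95% confidence interval from limma, for all 12 samples (filled) and without the weak array (open). *Bcl2* is left of 0 in every panel, and the interval of *Cflar* for MRL/lpr versus Fn14ko moves from 0.85 to 6.19 with all samples to -0.27 to 1.25 without the weak array. These intervals of *Cflar* are over unlike sets of probes.

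*Bcl2*, the founding inhibitor of mitochondrial apoptosis, stood at 0.166, 0.172, 0.194 and 0.402 in MRL/lpr replicates 1 to 4, at 0.258, 0.271, 0.262 and 0.289 in Fn14ko and at 0.334, 0.844, 0.345 and 0.674 in MRL/+. The 4 Fn14ko mice were all below the 4 MRL/+ mice and differed little from each other, and 3 of the 4 MRL/lpr mice were below every other mouse. The exception, replicate 4, was on the weak array, where the *Bcl2* spot was only 2.00 times its background in both mice and was not called well above background. The log2 fold change was -1.22 for MRL/lpr versus MRL/+ (SE 0.32, limma adjusted p = 0.0611, exact permutation p = 0.0857), -0.91 for Fn14ko versus MRL/+ (SE 0.32, adjusted p = 0.353, exact permutation p = 0.0286, the smallest that 4 against 4 mice allow) and -0.31 for MRL/lpr versus Fn14ko (SE 0.32, adjusted p = 0.406). Of all genes in the unfiltered fit, 8.39% were likewise lower in every Fn14ko mouse than in every MRL/+ mouse. The median log2 fold change of that fit was -0.97 for Fn14ko versus MRL/+, and 84.3% of genes were below 0. *Bcl2* at -0.91 was thus not lower than the typical gene in that comparison. For MRL/lpr versus MRL/+ and MRL/lpr versus Fn14ko the medians were 0.21 and 1.34.
In the 10 mice outside the weak array the levels of *Bcl2*, now relative to a median over more and dimmer spots, were 0.624 and 0.649 in MRL/lpr, 1.02, 1.07, 1.07 and 1.16 in Fn14ko and 1.28, 2.30, 1.36 and 2.09 in MRL/+. The strains were then ordered MRL/lpr, Fn14ko, MRL/+ with no overlap, as for 20%, 20.9% and 9.1% of genes lower in MRL/lpr than in MRL/+, in MRL/lpr than in Fn14ko and in Fn14ko than in MRL/+. *Bcl2* was lower by 1.42 log2 units in MRL/lpr than in MRL/+ (SE 0.20, limma adjusted p = 0.00128), by 0.76 in MRL/lpr than in Fn14ko (SE 0.20, adjusted p = 0.0388) and by 0.66 in Fn14ko than in MRL/+ (SE 0.16, adjusted p = 0.0208). Since the strains did not overlap, the order within each dye could not differ, and a single MRL/lpr mouse stands in each dye there. The sizes differed between dyes. For MRL/lpr versus MRL/+ they were -1.08 in Cy3 and -1.76 in Cy5, and for Fn14ko versus MRL/+ -0.34 in Cy3 and -0.97 in Cy5. The position of Fn14ko depended on the scaling. With each channel divided by the median of all its spots and all 12 mice, the log2 fold change was -1.76 for MRL/lpr versus MRL/+ (adjusted p = 0.0525), -1.77 for MRL/lpr versus Fn14ko (adjusted p = 0.0175) and 0.01 for Fn14ko versus MRL/+ (adjusted p = 0.987).

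*Bax*, the pore-forming effector that Bcl-2 restrains, did not pass in any comparison. Its levels were 0.715, 0.727, 0.495 and 1.22 in MRL/lpr, 0.529, 0.680, 0.716 and 0.598 in Fn14ko and 0.551, 1.40, 0.651 and 1.18 in MRL/+, and the 3 strains overlapped. The log2 fold changes were -0.23 (95% interval -0.84 to 0.38), 0.26 (-0.35 to 0.87) and -0.49 (-1.10 to 0.13) for MRL/lpr versus MRL/+, MRL/lpr versus Fn14ko and Fn14ko versus MRL/+.
The ratio of *Bax* to *Bcl2* within a mouse does not depend on the channel's scaling. As a log2 ratio it was 2.11, 2.08, 1.35 and 1.60 in MRL/lpr (mean 1.79, SD 0.37, n = 4), 1.04, 1.33, 1.45 and 1.05 in Fn14ko (1.21 ± 0.21) and 0.723, 0.726, 0.918 and 0.809 in MRL/+ (0.794 ± 0.092). Every MRL/lpr mouse and every Fn14ko mouse had a higher ratio than every MRL/+ mouse, and MRL/lpr and Fn14ko overlapped through the weak array. The share of gene pairs that separate the strains in this way is not given here. The ratio uses the *Bcl2* values reported above, so it is no separate finding. Levels of different probes are not comparable, so only differences of the ratio between mice can be read. With normexp background correction the 2 mice of the weak array were at 0.710 and 0.875 and overlapped MRL/+, and with the software's own processed signal all strains overlapped. The 2 other MRL/lpr mice lay above every Fn14ko and MRL/+ mouse under all 5 ways of processing the signal.

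**Figure D3:**
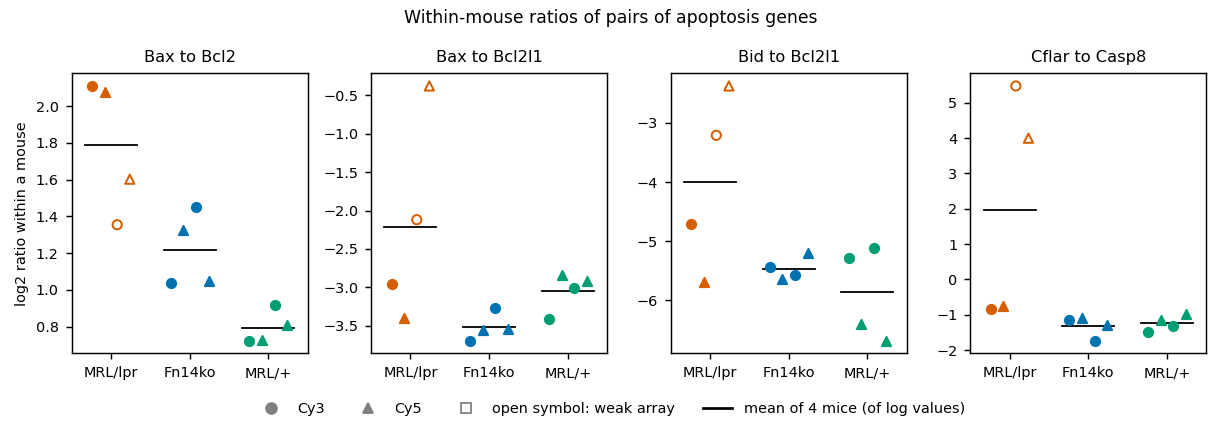
Log2 ratio of 2 genes' levels within each mouse (y axis), for *Bax* to *Bcl2*, *Bax* to *Bcl2l1*, *Bid* to *Bcl2l1* and *Cflar* to *Casp8*, by strain. Symbols mark the dye, open symbols the weak array and lines the mean of 4 mice. For *Bax* to *Bcl2* all MRL/+ mice lie between 0.723 and 0.918, below every mouse of the other strains.

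The probes of *Bcl2l1* disagreed. The bright probe, that at base 2581, the only one valid in all 12 mice and so the one behind the gene's level, gave 5.57, 7.67, 2.15 and 1.59 in MRL/lpr, 6.86, 7.99, 6.89 and 6.94 in Fn14ko and 5.87, 10.04, 5.22 and 8.90 in MRL/+. Only the 2 mice of the weak array stood low. The log2 fold change was -1.06 for MRL/lpr versus MRL/+ (SE 0.45, limma adjusted p = 0.117), -1.04 for MRL/lpr versus Fn14ko (adjusted p = 0.127) and -0.02 for Fn14ko versus MRL/+ (adjusted p = 0.992). In the 10 remaining mice both probes entered the gene's level, and its log2 fold changes were -0.0047 (95% interval -0.34 to 0.33), -0.22 (-0.55 to 0.12) and 0.21 (-0.06 to 0.49).
The coding-sequence probe of *Bcl2l1* printed above was dim and gave 0.0359, 0.0395, 0.132 and 0.287 in MRL/lpr, 0.0473, 0.0424, 0.0259 and 0.0282 in Fn14ko and 0.113, 0.211, 0.103 and 0.215 in MRL/+. Every Fn14ko mouse and the 2 MRL/lpr mice outside the weak array were below every MRL/+ mouse. On the weak array this spot was 1.75 and 1.72 times background. With all 12 mice and each probe tested on its own, the log2 fold change was -2.12 for Fn14ko versus MRL/+ (SE 0.65, limma adjusted p = 0.226) and -0.82 for MRL/lpr versus MRL/+ (adjusted p = 0.637). Without the weak array this probe was lower by 1.87 log2 units in Fn14ko than in MRL/+ (SE 0.30, adjusted p = 0.00160) and by 1.85 in MRL/lpr than in MRL/+ (SE 0.36, adjusted p = 0.00483), with a difference of 0.03 between MRL/lpr and Fn14ko (SE 0.36, adjusted p = 1.00). At the bright probe the same comparisons gave 0.24 (adjusted p = 0.195), 0.02 (adjusted p = 0.947) and -0.22 (adjusted p = 0.738). The share of all single probes that passed in this fit is not given here. Of the genes tested without the weak array, 21.1% passed for Fn14ko versus MRL/+ and 15.7% for MRL/lpr versus MRL/+. In these comparisons 9.1% and 20% of genes were lower with no overlap. The ratios of *Bax* and of *Bid* to *Bcl2l1*, which use the bright probe, overlapped among all strains.

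*Xiap*, the inhibitor of executioner caspases, was at 1.13, 1.03, 0.549 and 0.518 in MRL/lpr, 1.25, 1.13, 1.26 and 1.12 in Fn14ko and 1.05, 0.908, 0.987 and 1.15 in MRL/+. The low values were again those of the weak array, and the log2 fold changes of -0.43 for MRL/lpr versus MRL/+ (limma adjusted p = 0.264) and -0.65 for MRL/lpr versus Fn14ko (adjusted p = 0.125) rest on them. Without that array the first became 0.24 (adjusted p = 0.359) and the second -0.23 (adjusted p = 0.512). Fn14ko was then higher than MRL/+ by 0.47 log2 units (SE 0.15, adjusted p = 0.0436), with levels of 4.98, 4.48, 5.15 and 4.47 in Fn14ko as compared with 4.04, 2.47, 3.89 and 3.58 in MRL/+ and no overlap, as for 9.39% of genes in that direction. With all 12 mice that difference was 0.22 (SE 0.28, adjusted p = 0.801).

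*Bid*, which links the death receptor complex to mitochondria, stood at 0.214, 0.148, 0.232 and 0.306 in MRL/lpr, 0.158, 0.160, 0.145 and 0.189 in Fn14ko and 0.151, 0.119, 0.151 and 0.0867 in MRL/+. The strains overlapped by small margins, and the mice with the lowest values were the 2 MRL/+ mice in Cy5. The log2 fold change was 0.81 for MRL/lpr versus MRL/+ (SE 0.35, limma adjusted p = 0.216), 0.43 for MRL/lpr versus Fn14ko (adjusted p = 0.305) and 0.39 for Fn14ko versus MRL/+ (adjusted p = 0.450). These were, without the weak array, 0.68 (adjusted p = 0.123), 0.05 (adjusted p = 0.957) and 0.64 (adjusted p = 0.0727). Within Cy3 the difference between Fn14ko and MRL/+ was 0.05, and within Cy5 it was 1.23.

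Of the genes of the receptor complex, *Fadd*, *Casp8* and *Ripk1* passed in no comparison, with or without the weak array. *Fadd*, the adaptor, was at 0.0777, 0.0814, 0.0641 and 0.252 in MRL/lpr, 0.0960, 0.0933, 0.0815 and 0.0871 in Fn14ko and 0.0893, 0.208, 0.0763 and 0.206 in MRL/+. Its high values were those of MRL/lpr replicate 4 and of the MRL/+ mice in Cy5. Its log2 fold change without the weak array was -0.55 for MRL/lpr versus MRL/+ (95% interval -1.14 to 0.03), -0.26 for MRL/lpr versus Fn14ko (-0.84 to 0.33) and -0.30 for Fn14ko versus MRL/+ (-0.78 to 0.18). The mm9 position of this probe covers 40 of its 60 bases.
*Casp8*, the initiator caspase, was at 0.164, 0.120, 0.0677 and 0.257 in MRL/lpr, 0.111, 0.0923, 0.165 and 0.103 in Fn14ko and 0.136, 0.302, 0.131 and 0.224 in MRL/+. All strains overlapped. The log2 fold changes without the weak array were -0.25 (95% interval -0.90 to 0.40), 0.19 (-0.46 to 0.84) and -0.45 (-0.98 to 0.08) for MRL/lpr versus MRL/+, MRL/lpr versus Fn14ko and Fn14ko versus MRL/+.
*Ripk1*, the kinase of the complex, was at 0.0385, 0.0297, 0.0607 and 0.257 in MRL/lpr, 0.0314, 0.0289, 0.0424 and 0.0344 in Fn14ko and 0.0349, 0.117, 0.0258 and 0.0696 in MRL/+. Replicate 4 of MRL/lpr was again the highest. In the 10 remaining mice the log2 fold changes were -0.46 (-1.45 to 0.54), -0.09 (-1.09 to 0.90) and -0.36 (-1.18 to 0.45), so changes of up to about 1 log2 unit cannot be told from none for this dim gene.

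*Cflar*, the caspase-8 antagonist, had the largest fold change of the 9 genes, and it came from the weak array. The gene's level, the mean of the 2 probes valid in all 12 mice, was 0.0911, 0.0707, 3.01 and 4.10 in MRL/lpr, 0.0505, 0.0430, 0.0498 and 0.0422 in Fn14ko and 0.0490, 0.136, 0.0527 and 0.114 in MRL/+. Every MRL/lpr mouse was above every Fn14ko mouse, as for 11.2% of filtered genes. The 2 probes that the filter kept are those that were bright on the weak array. The other 2 were under 2 times background there and were dropped. The gene's level, its fold changes and this separation therefore depend on a choice of probes in which the weak array took part, and are no support for a difference. The log2 fold change was 3.52 for MRL/lpr versus Fn14ko (SE 1.22, limma adjusted p = 0.0932, exact permutation p = 0.0286) and 2.74 for MRL/lpr versus MRL/+ (SE 1.22, adjusted p = 0.130). The first passed under 4 other treatments of the signal or filter, all with the weak array included. Without the weak array the fold changes were 0.49 (SE 0.34, adjusted p = 0.457) and 0.06 (SE 0.34, adjusted p = 0.921). They are over another set of probes, those at bases 508, 2300 and 1940. The probe at base 1844, taken up below, was not among them.
The excess on the weak array was seen in the net intensity itself. The *Cflar* probe starting at base 508 of its transcript had net intensities of 584.5 and 405.8 in MRL/lpr replicates 3 and 4, compared with 489.2 and 165.2 in replicates 1 and 2 and 70.5 to 241.0 in the other strains, although the channel medians of replicates 3 and 4 were only 169.7 and 74.7. The probe at base 2300 had 436.0 and 206.4 there. The other 2 *Cflar* probes were 1.27 to 1.79 times background on that array. High net intensities on the weak array were thus seen at 2 of the 4 *Cflar* probes.
The *Cflar* probe printed above, at base 1844 of its transcript, separated the strains outside the weak array. In MRL/lpr replicates 1 and 2 its spot was 18.5 and 11.4 times as bright as the background, compared with 1.90 to 2.15 times in Fn14ko and 2.62 to 3.68 times in MRL/+. In the 10 remaining mice its levels were 0.363 and 0.754 in MRL/lpr, 0.0344, 0.0431, 0.0355 and 0.0602 in Fn14ko and 0.0840, 0.308, 0.0665 and 0.178 in MRL/+, so both MRL/lpr mice were above every other mouse. The log2 fold change was 3.63 for MRL/lpr versus Fn14ko (SE 0.48, limma adjusted p = 0.000279), 1.98 for MRL/lpr versus MRL/+ (SE 0.48, adjusted p = 0.0161) and -1.65 for Fn14ko versus MRL/+ (SE 0.39, adjusted p = 0.0133). With all 12 mice it was 3.37 for MRL/lpr versus Fn14ko (SE 0.67, adjusted p = 0.0147, or 0.156 with array as a random block), 1.57 for MRL/lpr versus MRL/+ (adjusted p = 0.212) and -1.80 for Fn14ko versus MRL/+ (adjusted p = 0.350). There Fn14ko replicates 1 and 3 were at the floor of 0.01 and replicates 2 and 4 at 0.0109 and 0.0150, so the floor limits these sizes. On the weak array this spot was 1.27 and 1.48 times background. Of all genes without a filter, 6.83% passed for MRL/lpr versus Fn14ko, with a median log2 fold change of 1.34. The probe was called well above background in only 1 of 4 Fn14ko mice. The share of all single probes that passed without the weak array is not given here. Of the genes tested there, 9.12% passed for MRL/lpr versus Fn14ko, 15.7% for MRL/lpr versus MRL/+ and 21.1% for Fn14ko versus MRL/+. Both MRL/lpr mice were above every Fn14ko mouse for 16.1% of genes and above every MRL/+ mouse for 13.9%.
The probe at base 2300, assigned to the same transcript as that at base 1844, gave 0.53 for MRL/lpr versus Fn14ko (adjusted p = 0.704) and -0.52 for MRL/lpr versus MRL/+ (adjusted p = 0.334) without the weak array. Those at bases 508 and 1940 gave 0.82 (adjusted p = 0.199) and -0.25 (adjusted p = 0.989) for MRL/lpr versus Fn14ko. At base 508 both MRL/lpr mice (0.406 and 0.363) were also above every other mouse (up to 0.286), but in this fit, which has no block for array, the difference passed at only 1 of the 4 *Cflar* probes, that at base 1844.
The log2 ratio of *Cflar* to *Casp8* within a mouse was -0.846 and -0.760 in the 2 MRL/lpr mice outside the weak array, -1.14, -1.10, -1.73 and -1.29 in Fn14ko and -1.48, -1.15, -1.32 and -0.982 in MRL/+. No size can be read on the weak array, where the *Casp8* spot was 1.48 and 1.62 times its background, and *Casp8* was not well above background in the 2 MRL/+ mice in Cy5 either. These ratios use the *Cflar* probes valid in all 12 mice. Over all 4 *Cflar* probes the ratio was -1.057 and -0.356 in the same MRL/lpr mice and -1.319 and -1.295 in the MRL/+ mice in Cy5. With the software's processed signal, also over all 4 probes, it was -0.671 and -0.016 in these MRL/lpr mice and 1.77 and 1.56 in these MRL/+ mice. The 2 strains then overlapped, with or without the weak array.

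**Figure D4:**
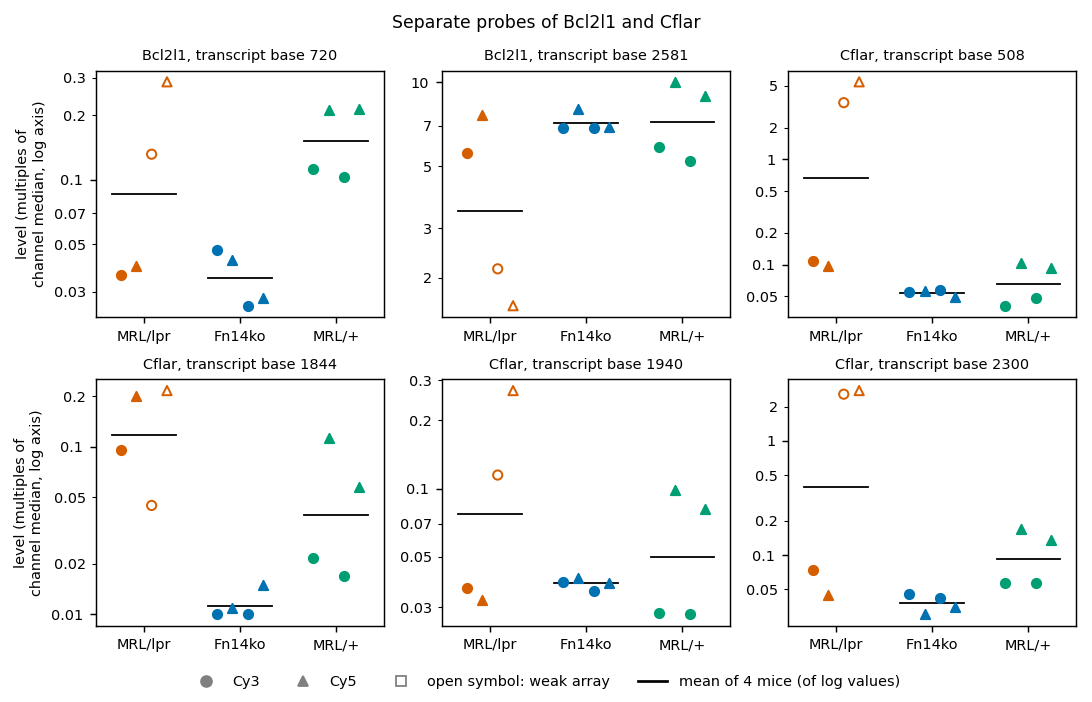
Level of the 2 *Bcl2l1* and 4 *Cflar* probes in each mouse, in multiples of the channel median on a log axis, named by their first base on the transcript. Open symbols are the weak array, circles Cy3 and triangles Cy5, and the lowest *Cflar* levels at base 1844 are at the floor of 0.01. The *Bcl2l1* probe at base 720 is higher in MRL/+ than in Fn14ko in every mouse and that at base 2581 is not, and the weak array is high at the *Cflar* probes of bases 508 and 2300.

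The spread among mice of a strain differed. The median coefficient of variation of the 9 genes was 52.8% in MRL/lpr (range 28.8% to 113.0%), 9.45% in Fn14ko (5.14% to 27.5%) and 43.3% in MRL/+ (10.2% to 66.8%), beside 51.4%, 15.8% and 27.5% over the genes valid in all 12 mice. *Bcl2* was the tightest of the 9 in Fn14ko, at 5.14%, and *Xiap* in MRL/+, at 10.2%. The genes valid in all 12 mice do not include *Fadd*, *Casp8*, *Ripk1*, *Bid* and *Bcl2*, so the medians are over unlike sets. Differences between dyes and arrays are also part of this spread. In MRL/+, *Bcl2* was at 0.334 and 0.345 in Cy3 and at 0.844 and 0.674 in Cy5, and MRL/lpr holds the weak array.

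Beyond the 9 genes, 51 further genes of the apoptosis machinery were listed (ligands and receptors, adaptors and necroptosis, caspases and apoptosome, IAPs and mitochondrial release, and other members of the Bcl2 family), of which 50 were on the array. With all 12 mice, 1 of 50 was higher and 0 lower in MRL/lpr than in MRL/+, 0 higher and 1 lower in MRL/lpr than in Fn14ko and 0 in either direction in Fn14ko versus MRL/+ by limma. In these comparisons 9.17%, 3.98% and 0.519% of the filtered genes passed, and 2.46%, 6.83% and 0.145% of all genes without a filter. The counts do not stand out from that background and are no result about the 50 genes as a group. Both genes that passed belong to the Bcl2 family, and neither passed with array as a random block.
*Bok*, a BAX-like effector, was at 1.41, 0.986, 1.48 and 1.05 in MRL/lpr, 0.826, 0.723, 1.35 and 0.816 in Fn14ko and 0.745, 0.414, 0.695 and 0.379 in MRL/+. *Bok* was higher in every MRL/lpr mouse than in every MRL/+ mouse, as for 4.58% of filtered genes, by 1.18 log2 units (SE 0.21, limma adjusted p = 0.0103, but 0.275 with array as a random block), and Fn14ko lay between them (0.75 above MRL/+, adjusted p = 0.123). Without the weak array *Bok* was higher by 1.31 in MRL/lpr (SE 0.26, adjusted p = 0.00838) and by 1.01 in Fn14ko (SE 0.21, adjusted p = 0.0113) than in MRL/+.
*Bcl2l2*, which encodes the Bcl-2-like survival protein Bcl-w, was read by 1 of its 2 probes and was at 0.881, 1.83, 0.566 and 0.924 in MRL/lpr, 2.27, 2.87, 2.72 and 3.33 in Fn14ko and 2.11, 1.56, 1.86 and 1.49 in MRL/+. It was lower in every MRL/lpr mouse than in every Fn14ko mouse, as for 10.3% of filtered genes, by 1.53 log2 units (SE 0.31, limma adjusted p = 0.0251, but 0.276 with array as a random block), and by 1.22 without the weak array (SE 0.31, adjusted p = 0.0372). *Bcl2l2* was also higher in every Fn14ko mouse than in every MRL/+ mouse, as for 5.88%, by 0.67 with all 12 mice (SE 0.31, adjusted p = 0.328) and by 0.89 without the weak array (SE 0.26, adjusted p = 0.0341).
Without the weak array, 4 of the 50 genes were higher and 2 lower in MRL/lpr than in MRL/+, 1 higher and 1 lower in MRL/lpr than in Fn14ko, and 8 higher and 2 lower in Fn14ko than in MRL/+, beside 15.7%, 9.12% and 21.1% of all genes. Of the other Bcl2 family genes, 5 of 16 were higher and 0 lower in Fn14ko than in MRL/+ (*Bok*, *Bcl2l2*, *Hrk*, *Bnip3l* and *Bcl2l13*), a mixture of survival and death genes, since *Hrk* encodes a BH3-only activator of apoptosis. The list's median log2 fold change in that comparison was 0.25, with 5 of 16 below 0. Of all genes tested there, 10% were called higher and 11.1% lower. For each of the 5 genes named, the MRL/+ mice in Cy5 were below those in Cy3. *Bnip3l* with all 12 mice was at 0.868 and 0.938 in Cy5 and at 1.62 and 1.44 in Cy3 in MRL/+. In Fn14ko it was at 1.81 and 2.00 in Cy5 and at 1.70 and 2.09 in Cy3. The part of the dye was not tested.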

How the data were processed

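The authors scanned the arrays with Agilent Feature Extraction 12.1.0.3, and the deposited files hold an intensity per spot and dye on a linear scale, not normalized between channels. Following the methods, the median local background was subtracted from the mean foreground, spots under 2 times background or flagged as outliers were dropped, and 10877 of 43020 spots, valid in all 12 samples, were kept (8864 genes). No spot of the 9 genes was saturated. Signals were divided by the channel's median of these spots and averaged over spots, then over probes, and log2 values were fitted with limma 3.58.1 in R 4.3.3 (12 samples, dye as covariate, eBayes with trend, Benjamini-Hochberg over all genes, threshold 0.05). A gene without a valid spot was taken from an unfiltered fit with the same medians, with signals under 1% of the median set to 1%. Exact permutation tests were two-sided over 4 against 4 mice, with a smallest p of 0.0286. The 2 mice of an array are separate animals but not independent measurements. The limma step was tested on simulated data with independent noise of the same spread in every sample. That test does not cover mice of an array that resemble each other, nor the weak array. Python 3.11.15 and matplotlib 3.10.9 drew the figures, and statmod 1.5.0 fitted random blocks.

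The members and lists were chosen with earlier results of these data known. Named are the 9 genes, *Tnfrsf12a* and *Fas* as checks of the labels, up to 4 genes per apoptosis list past the threshold by smallest adjusted p, and 4 within-mouse ratios as a description without a test. The alternatives were the background correction, signal, scaling, filter, floor, probe summary, covariates, weights, test and samples. Ratios under other signals, values within a dye, single probes without the weak array and array blocks in those 10 mice and for single probes were added after the values were seen. The number of arrays limits the precision.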

Additional observations from a re-analysis of the deposited data

Results flagged for a closer look

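Of 27 sets of 4 mice (9 genes in 3 strains), 4 had a mouse whose distance to its nearest neighbour exceeded 0.83 of the set's range, a limit that chance passes in about 1 in 20 sets. MRL/lpr replicate 4, of the weak array, stood high for *Fadd* (0.2524 channel medians), *Ripk1* (0.2575) and *Bcl2* (0.4025). Fn14ko replicate 2 stood high for *Bcl2l1* (7.993, compared with 6.86 to 6.94 in the other 3 mice).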

How the results depend on the processing

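Of 864 values of the 9 genes under other settings, 764 kept their direction and side of the threshold, 42 passed the threshold only there, 0 lost it and 58 changed direction. With all 12 mice 0 of 9 genes passed in each comparison, and a replicate block, in place of dye, left 0 of 9 in each. Same-numbered mice correlated at -0.395 to 0.503, so the numbers do not pair them, and in 3 of 12 cases the closest match carried the same number. The cause of the moves below was not tested, beyond the samples or genes each setting removes.

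Each count of the 9 genes that passed is given with the percent of all genes tested that passed in the same fit. For MRL/lpr versus MRL/+, 1 passed with loess and Aquantile normalization (5.98%), 1 with quantile normalization (5.07%), 2 with array weights (16.4%), 1 without the weak array (15.7%), 2 with array as a random block in those 10 mice (28.6%), 1 by the methods' heteroscedastic test unadjusted (15.8%), and 0 to 3 with 1 mouse left out, the most without MRL/lpr replicates 1 (3 genes, 37.6%) and 2 (2 genes, 39.1%). For MRL/lpr versus Fn14ko, 1 passed with no filter (6.83%), 1 with spots well above background (5.7%), 1 with normexp (9.16%), 1 with the processed signal (9.83%), 2 with the median of all spots (12.8%), 3 with array weights (10.2%), 1 without the weak array (9.12%), 1 with array as a random block there (15.9%), and 0 to 3 with 1 mouse left out, 3 only without MRL/lpr replicate 1 (40.1%) or 2 (48.5%). For Fn14ko versus MRL/+, 1 passed with only these 2 groups in the fit (26%), 5 with array weights (38.5%), 2 without the weak array (21.1%), 3 with array as a random block there (35.7%), 1 by the methods' test unadjusted (16.8%), and 0 with any 1 mouse left out. Array as a random block left 0 in each with all 12 mice (0.079%, 0.0451% and 0%). The block in the 10 mice was added after the values were seen. With its correlation below 0, *Bid* passed too, for MRL/lpr versus MRL/+ (adjusted p = 0.0439) and Fn14ko versus MRL/+ (adjusted p = 0.0225), as did the *Cflar* probe at base 508 for MRL/lpr versus Fn14ko (adjusted p = 0.0134) and MRL/+ (adjusted p = 0.00697), where 19% and 61.3% of all probes passed. *Bcl2* in MRL/lpr versus MRL/+ was below 0 under every setting run, and passed without MRL/lpr replicate 1 (adjusted p = 0.0407) or 4 (adjusted p = 0.0320).

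These log2 fold changes changed direction. With normexp, *Fadd* was 0.42 and *Casp8* 0.31 for MRL/lpr versus MRL/+, and *Bcl2* 0.087 for MRL/lpr versus Fn14ko. With the processed signal, *Fadd* was 1.64, *Casp8* 1.03, *Ripk1* -0.71 and *Bid* -0.82 for MRL/lpr versus MRL/+, *Bid* -0.34 and *Bax* -0.035 for MRL/lpr versus Fn14ko, and *Fadd* 0.89, *Casp8* 0.37, *Bid* -0.49 and *Bcl2l1* 0.20 for Fn14ko versus MRL/+. With loess and Aquantile, *Ripk1* was -0.24 for MRL/lpr versus MRL/+, *Fadd* -1.11, *Casp8* -0.98, *Ripk1* -0.63 and *Bid* -0.25 for MRL/lpr versus Fn14ko, and *Fadd* 0.026, *Cflar* 0.16 and *Ripk1* 0.39 for Fn14ko versus MRL/+. With quantile normalization, *Ripk1* was -0.098 for MRL/lpr versus MRL/+, *Fadd* -1.43, *Casp8* -1.28, *Ripk1* -0.80 and *Bid* -0.46 for MRL/lpr versus Fn14ko, and *Fadd* 0.087, *Cflar* 0.10, *Ripk1* 0.70 and *Bcl2l1* 0.049 for Fn14ko versus MRL/+. With the median of all spots, *Ripk1* was -0.22 for MRL/lpr versus MRL/+, *Fadd* -1.29, *Casp8* -1.22, *Ripk1* -0.52 and *Bid* -1.03 for MRL/lpr versus Fn14ko, and *Fadd* 0.37, *Casp8* 0.22, *Ripk1* 0.30 and *Bcl2* 0.011 for Fn14ko versus MRL/+. With array weights, *Fadd* was 0.13 and *Xiap* 0.060 for MRL/lpr versus MRL/+, and *Bcl2* 0.29 for MRL/lpr versus Fn14ko. Without the weak array, with or without array as a random block, *Ripk1* was -0.46 and *Xiap* 0.24 for MRL/lpr versus MRL/+, *Fadd* -0.26 and *Ripk1* -0.093 for MRL/lpr versus Fn14ko, and *Bcl2l1* 0.21 for Fn14ko versus MRL/+. With 1 mouse left out, *Ripk1* ranged from -0.28 to 0.89 for MRL/lpr versus MRL/+, *Fadd* from -0.18 to 0.43 and *Casp8* from -0.029 to 0.54 for MRL/lpr versus Fn14ko, and *Bcl2l1* from -0.14 to 0.11 for Fn14ko versus MRL/+. Signal over background limits *Fadd*, *Casp8*, *Ripk1* and *Bid*, whose spots were not well above background on the weak array or in the MRL/+ mice in Cy5.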
